A study of Homo sapiens with 9 samples.

Results

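Calcium entry, phosphoinositide breakdown and calcineurin signalling were followed through 34 genes, taken by gene symbol from a list of the route. Of these, 33 were measured, among 19775 genes in all, and PKD2 was not analysed here. Each gene was read from its brightest probe set on average over the 9 arrays, and the gene's other probe sets served as a check. The 33 genes had 107 probe sets, and 4 of the genes had a single one. By mean signal over the 9 arrays, 30 of the 33 lay above the median probe set and 24 lay in the brightest quartile of all probe sets. The exceptions below the median were TRPC1 and PLCB2, in the second quartile, and PLCB4, in the dimmest.

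The cells were Jurkat, an established human T lymphocyte line that descends from 1 leukaemia, so every group shared 1 genetic background. All cells were put into an electroporation cuvette, and RNA was taken 4 h after exposure in every group. The 3 sham samples received no electrical energy, the 3 nanosecond electrical pulse (nsEP) samples received 100 pulses of 10 ns at 150 kV/cm, and the 3 heat shock samples were warmed in a hot water bath. Labels call the samples biological replicates and do not say whether they came from separate cultures, so a p-value measures the spread between these samples, which may be technical. The comparison with sham asks what each stress changed, and nsEP against heat shock tests directly whether both stresses left different transcript levels.

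Calcium enters a lymphocyte through channels of the plasma membrane, some of which open on stretch and some when the endoplasmic reticulum runs low on calcium. Phospholipase C cleaves the membrane lipid phosphatidylinositol bisphosphate into diacylglycerol and inositol trisphosphate (IP3), and IP3 opens calcium release channels of the reticulum. The STIM proteins sense the empty store and open ORAI channels, pumps clear the calcium again, and sustained calcium activates the phosphatase calcineurin, which sends NFAT transcription factors to the nucleus. In T cells this route follows the antigen receptor and drives activation genes.

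Of the 33 genes, 0 passed the test after nsEP against sham, and the 33 log2 ratios lay between -0.90 for PLCB2 and 0.57 for TRPC1. After heat shock 1 gene fell, PLCB1, a phospholipase C that G proteins activate, to 0.55 of its sham signal (log2 ratio -0.86). Between nsEP and heat shock 3 genes differed. ATP2B1, a calcium pump of the plasma membrane, and NFATC1, an NFAT transcription factor, were higher after nsEP, by 1.69-fold and 1.54-fold. ORAI2, a subunit of the store-operated calcium channel, was lower after nsEP, at 0.55 of its signal after heat shock. A gene passed at an adjusted p under 0.05 from limma, adjusted by the Benjamini-Hochberg method over all 54613 probe sets. Each of these calls ended when certain single arrays were left out and held without others, as given with each gene.

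The sequences before the start sites of the 3 genes that differed between nsEP and heat shock are shown because one of them went the opposite way to the other two. Each is the 250 bases before the most upstream start that RefSeq lists (GRCh38.p14), 5′ to 3′ on the gene's own strand. ORAI2 is at chr7:102433325-102433574 on the plus strand, ATP2B1 at chr12:89709367-89709616 on the minus strand and NFATC1 at chr18:79395680-79395929 on the plus strand. Capitals mark the NFAT core, GGAAA or its reverse complement TTTCC.
ORAI2: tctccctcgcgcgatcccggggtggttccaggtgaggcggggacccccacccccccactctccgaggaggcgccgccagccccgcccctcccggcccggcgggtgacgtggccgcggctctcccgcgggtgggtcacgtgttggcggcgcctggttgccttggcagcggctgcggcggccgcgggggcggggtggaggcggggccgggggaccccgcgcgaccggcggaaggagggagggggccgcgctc
ATP2B1: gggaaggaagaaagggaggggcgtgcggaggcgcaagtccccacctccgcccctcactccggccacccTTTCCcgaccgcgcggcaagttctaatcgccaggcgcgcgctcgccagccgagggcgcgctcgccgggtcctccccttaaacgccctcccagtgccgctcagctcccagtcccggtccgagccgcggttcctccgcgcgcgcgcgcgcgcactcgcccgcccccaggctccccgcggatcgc
NFATC1: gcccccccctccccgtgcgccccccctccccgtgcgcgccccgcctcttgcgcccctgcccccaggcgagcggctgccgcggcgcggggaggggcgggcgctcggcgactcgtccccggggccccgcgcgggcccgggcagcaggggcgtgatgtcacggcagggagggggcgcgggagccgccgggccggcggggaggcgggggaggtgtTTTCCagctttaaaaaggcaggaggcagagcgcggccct
All 3 windows are rich in G and C, with 81.2% in ORAI2, 75.2% in ATP2B1 and 81.2% in NFATC1. The NFAT core is at -182 to -178 from the start in ATP2B1 and at -39 to -35 in NFATC1, and these letters are not in the ORAI2 window. Both strands were searched for the core, for the heat shock element (GAANNTTC or TTCNNGAA), for AP-1 (TGANTCA) and for the cyclic AMP element (TGACGTCA). Letters of the core and of the heat shock element can overlap. None of the other 3 motifs is in these 3 windows. Over the 24 genes with an entry, 8 windows (33.3%) hold the NFAT core and 1 window (4.17%), that of PLCG2, holds a heat shock element. Of 27305 windows in RefSeq, 56% hold the core and 11.7% the heat shock element. AP-1 is in 0 of the 24 and in 6.57% of all windows, and the cyclic AMP element in 0 of the 24 and in 1.75% of all. These matches are descriptions of the letters, not binding sites. No entry was found for TRPV2, ORAI1, PLCB1, PLCB2, PLCB4, ITPR2, ATP2A3, PPP3CA and PPP3CB.

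Across the 9 arrays, no pair held identical values, and correlations between arrays ran from 0.899 to 0.939. The array of nsEP replicate 3 lay at -172.6 on the second principal component (14.2% of the variance), where the other 8 lay between -30.6 and 62.6. Its log2 signal of the GAPDH control at the 3′ end minus the 5′ end was 0.56, against -0.22 to 0.26 on the others. For the ACTB control the value was 1.24, below the 1.26 of sham replicate 1. Its array weight, 0.51, was the lowest of the 9. Whether RNA quality set this array apart was not tested. After heat shock the median of all genes lay 0.14 above sham on the log2 scale, from 0.47 in the dimmest quartile to -0.05 in the brightest, where 24 of the 33 genes sit. After nsEP that median lay at -0.02. The measured T lymphocyte markers, 11 of 12, had mean sham signals from 9.14 (CD7) to 14.5 (CD3D). After heat shock 4 of the 11 were above sham and 7 below, and 2 passed, CD2 and CD28, which fell by 1.79 and 1.01 on the log2 scale. CD3D (0.38) and LCK (0.36) lay above sham on all 3 heat shock arrays without passing. Of the 7 measured myeloid markers, 5 were above sham after heat shock and 2 below. CD14 rose from a mean of 2.29 to 7.07 and was the one that passed. LYZ (2.77) and ITGAM (0.50) lay above all sham arrays and FCGR1A (-1.50) below them, none past the test. None of the 5 measured B lymphocyte markers passed the test against sham, and none of the 23 markers passed after nsEP. The part of these marker values in the results was not tested. In these bulk samples, fewer cells expressing a gene and less of its RNA per cell cannot be told apart.

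**Figure D1:**
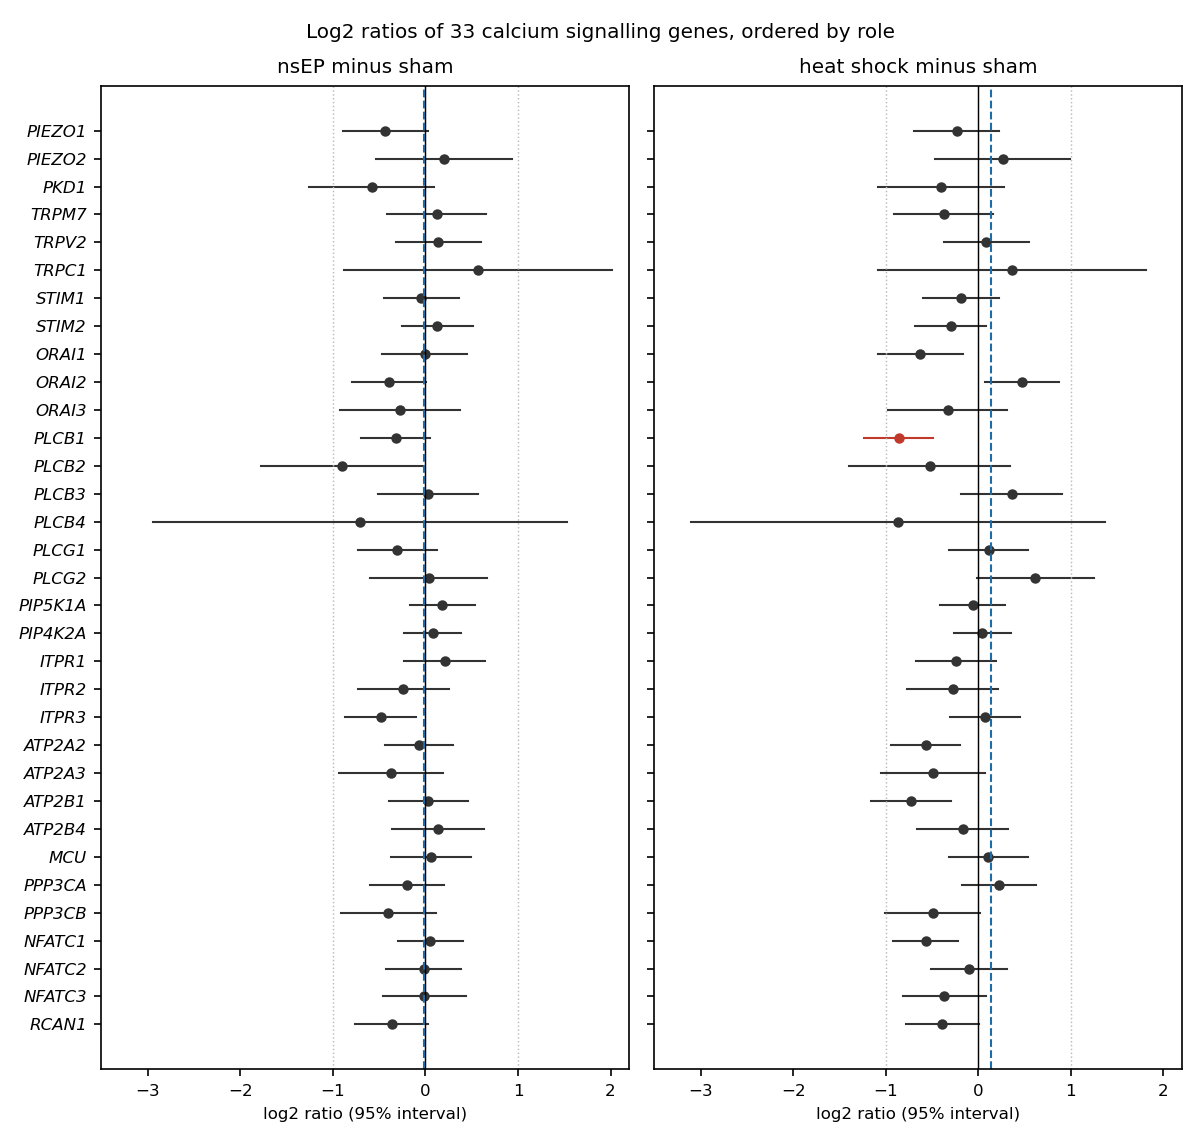
Log2 ratio of each of the 33 measured genes (points) with its 95% interval from limma (lines), for nsEP minus sham on the left and heat shock minus sham on the right, 3 arrays a group. The solid line is 0, the dashed line the median of all 19775 genes, the dotted lines 1 and -1, and red marks PLCB1, the only gene past the test against sham.

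After nsEP the median log2 ratio of the 33 genes was -0.02, and that of all 19775 genes was also -0.02. Of the 33, 14 were above 0 and 19 below. For 29 of the 33 the whole 95% interval of the log2 ratio lay between -1 and 1, so for these genes a change of 2-fold or more lay outside the interval. The exceptions were PKD1, TRPC1, PLCB2 and PLCB4, and 3 of these 4 were at or below the second quartile of signal. Among all genes, 0.0506% were called higher and 0.0101% lower after nsEP, so few calls were made in any list. At an unadjusted p under 0.05 there were 2 genes, both lower, against 2.91% of all genes lower and 2.49% higher, and the smallest adjusted p was 0.585 (ITPR3, limma). Without nsEP replicate 3, the array that stood apart, the count past the test was again 0. All 3 nsEP arrays lay above all 3 sham arrays for 1 gene, PIEZO2, against 4.56% of all genes. All 3 lay below sham for 6 genes, PKD1, ORAI2, PLCB1, PLCB2, PLCB4 and ITPR3, against 5.41% of all genes.

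After heat shock the median log2 ratio of the 33 genes was -0.24, against 0.14 for all genes and -0.05 for all genes of the brightest quartile. The gap to all genes was -0.38, and -0.17 with quantile normalization. Of the 33, 11 were above 0 and 22 below, and 27 were below the median of all genes. The 95% interval lay between -1 and 1 for 23 of the 33. The test called 0 genes higher, against 1.72% of all genes, and 1 lower, against 3.99% of all genes. With arrays centred on the median gene 5 were called, all lower, and the share of all genes under that setting was not counted. At an unadjusted p under 0.05 there were 6, 1 higher, against 10.7% of all genes, and 5 lower, against 11.3%. The 3 heat shock arrays lay above the 3 sham arrays for ORAI2 alone, against 17.5% of all genes. They lay below sham for 9 genes, STIM2, ORAI1, PLCB1, PLCB2, ATP2A2, ATP2A3, ATP2B1, NFATC1 and RCAN1, against 13.7% of all genes.

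Between nsEP and heat shock the median log2 ratio of the 33 genes was 0.08, against -0.14 for all genes. The test called 2 genes higher after nsEP, against 3.83% of all genes, and 1 lower, against 2.16% of all genes. With arrays centred on the median gene 5 were called, all higher after nsEP, and with quantile normalization 1, ORAI2. For these settings too the share of all genes was not counted. At an unadjusted p under 0.05 there were 10, 7 higher after nsEP, against 10.1% of all genes, and 3 lower, against 10.8%. The 3 nsEP arrays lay above the 3 heat shock arrays for 5 genes, STIM2, ORAI1, PLCB1, ATP2B1 and NFATC1, against 10.7% of all genes. They lay below for 4 genes, ORAI2, PLCB2, ITPR3 and PPP3CA, against 14.4% of all genes. The comparisons with sham share the sham arrays, and both comparisons with heat shock share the heat shock arrays.

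Among the channels that open on stretch or carry mixed cations, 0 of 6 passed in any comparison. PIEZO1 (probe set 202771_at) encodes a large channel that opens when the membrane is stretched. Its log2 signal was 11.55, 10.97 and 11.27 in sham, 10.42, 11.04 and 11.03 after nsEP, and 11.09, 11.27 and 10.74 after heat shock. The lowest array was nsEP replicate 1, and the 3 groups overlapped. The log2 ratio was -0.43 (SE 0.21, adjusted p = 0.742) after nsEP and -0.23 (SE 0.21, adjusted p = 0.61) after heat shock, and nsEP minus heat shock was -0.20 (adjusted p = 0.665).

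A dimmer probe set listed for PIEZO1, 1566111_at, gave other values. On the log2 scale its signal was 7.89, 6.09 and 6.78 in sham, 5.76, 4.31 and 6.14 after nsEP and 8.79, 8.69 and 9.09 after heat shock. All 3 heat shock arrays lay above all others, and nsEP minus heat shock was -3.45 (SE 0.51, adjusted p = 0.00203), while against sham neither stress passed (-1.52, adjusted p = 0.543, and 1.94, adjusted p = 0.055). The third PIEZO1 probe set was at -0.67 in the same comparison (adjusted p = 0.349). The 3 probe sets of PIEZO1 thus gave unequal ratios, and only the brightest stands for the gene in the counts.

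The related stretch channel PIEZO2 had log2 ratios of 0.20 after nsEP and 0.26 after heat shock. PKD1, which encodes the large membrane protein polycystin 1, was at -0.58 after nsEP (interval -1.26 to 0.10) and -0.40 after heat shock. TRPM7, a channel joined to a kinase, was at 0.12 and -0.38. Its nsEP arrays were 10.00, 9.99 and 9.09 against 9.21, 9.09 and 9.29 after heat shock, and without nsEP replicate 3 it was called higher after nsEP than after heat shock. TRPV2 was at 0.14 and 0.09, and the dim TRPC1 at 0.57 and 0.36, with sham arrays from 3.25 to 5.60.

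In store-operated entry, 0 of 5 genes passed against sham, and 1 of 5, ORAI2, passed between nsEP and heat shock. STIM1 (202764_at) encodes the calcium sensor of the reticulum. The 9 arrays gave log2 signals of 9.18, 9.20 and 8.89 in sham, 8.81, 9.02 and 9.32 after nsEP and 8.98, 8.91 and 8.81 after heat shock. The groups overlapped, with ratios of -0.04 (SE 0.19, adjusted p = 0.987) after nsEP and -0.19 (SE 0.19, adjusted p = 0.644) after heat shock, and 0.14 between both stresses (adjusted p = 0.735). The other STIM1 probe set was at -0.77 after nsEP, 0.20 after heat shock and -0.97 between both stresses, without passing. STIM2, the second sensor, had lower signals on all 3 heat shock arrays than on any sham array, with a ratio of -0.30 that did not pass (adjusted p = 0.406).

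ORAI1 (226531_at) encodes the pore of the channel that STIM1 opens. Its log2 signal was 9.87, 10.22 and 10.23 in sham, 9.78, 10.10 and 10.43 after nsEP and 9.59, 9.71 and 9.14 after heat shock. All 3 heat shock arrays lay below the other 6, and nsEP arrays lay among the sham arrays. After nsEP the ratio was -0.01 (SE 0.21, interval -0.46 to 0.45, adjusted p = 0.998). After heat shock it was -0.63 (SE 0.21, adjusted p = 0.129), and nsEP minus heat shock was 0.62 (adjusted p = 0.124). When each array was centred on its median gene, ORAI1 passed in both comparisons with heat shock (adjusted p = 0.0282 and 0.0256). In each comparison this was the only 1 of the 16 alternatives with an adjusted p in which ORAI1 passed. The gene has a single probe set, so no second probe set checks it.

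ORAI2 (1558426_x_at) encodes a second pore subunit of that channel. Per array the log2 signal was 10.83, 10.74 and 10.67 in sham, 10.22, 10.29 and 10.56 after nsEP and 11.23, 10.85 and 11.57 after heat shock. The 3 groups did not overlap, with nsEP lowest, sham between and heat shock highest. The ratio was -0.39 after nsEP (SE 0.18, adjusted p = 0.721) and 0.47 after heat shock (SE 0.18, adjusted p = 0.196). The difference between both stresses was -0.86 (SE 0.18, interval -1.26 to -0.46, adjusted p = 0.0177), or -0.72 relative to the median of all genes. The call ended without nsEP replicate 1, without nsEP replicate 2, without heat shock replicate 1 and without heat shock replicate 3 (adjusted p = 0.0588, 0.0709, 0.0673 and 0.0824). It also ended when arrays were centred on the median gene (adjusted p = 0.0605), and it held without nsEP replicate 3 (adjusted p = 0.0123).

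The order of the 3 group means for ORAI2 was shared by its 2 dimmest probe sets and not by the other 3. After heat shock the next 3 brightest were lower than sham, at -0.48, -0.16 and -0.65, and the 2 dimmest were higher, at 0.45 and 0.43. After nsEP all 6 were below sham, from -0.67 to -0.05. In nsEP minus heat shock 4 of the 6 were below 0, and the ratios ran from -1.11 to 0.38. Only the brightest passed, and its suffix marks a probe set with probes that can also match other transcripts. The third subunit, ORAI3, was at -0.27 after nsEP and -0.33 after heat shock.

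**Figure D2:**
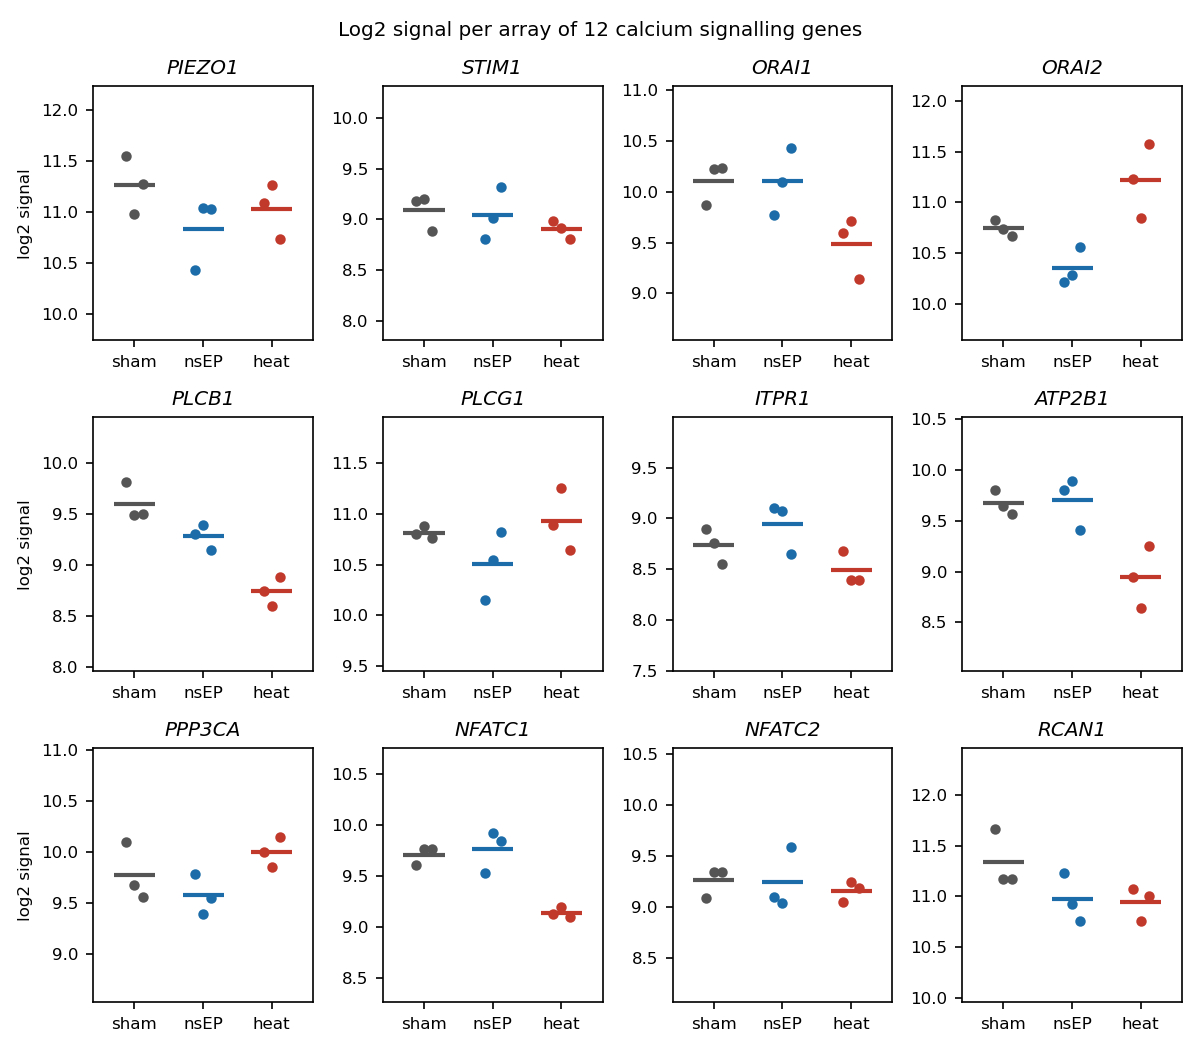
Log2 signal on each of the 9 arrays (points) and the group mean (bars) for 12 of the genes, by sham, nsEP and heat shock, 3 arrays each, with a separate axis range in each panel. PLCB1, ATP2B1 and NFATC1 are below the other 6 arrays on all 3 heat shock arrays, and ORAI2 is above them.

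Of the 8 phospholipase C genes and phosphoinositide kinases, 1 passed, PLCB1 after heat shock. For PLCB1 (213222_at) the log2 signal was 9.81, 9.49 and 9.51 in sham, 9.30, 9.40 and 9.15 after nsEP and 8.74, 8.60 and 8.88 after heat shock. The 3 groups did not overlap, with sham highest and heat shock lowest. PLCB1 fell by 0.86 on the log2 scale after heat shock (SE 0.17, adjusted p = 0.0144), which is -0.997 relative to the median of all genes. After nsEP the ratio was -0.32 (SE 0.17, adjusted p = 0.777). The nsEP arrays were 0.54 above heat shock (SE 0.17, adjusted p = 0.1), so the fall after heat shock is not shown to differ from the value after nsEP. Without sham replicate 1, heat shock replicate 1 or heat shock replicate 2 the adjusted p was 0.0708, 0.0554 and 0.0591. The other probe sets of PLCB1, both below the median signal, were at -0.32 and 0.58 after heat shock.

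The other G protein activated enzymes varied more, and 0 passed. PLCB2 was lower after nsEP, at -0.90 (interval -1.77 to -0.03, adjusted p = 0.697), with nsEP arrays of 5.40, 5.65 and 5.88 below sham arrays of 6.90, 6.61 and 6.12. PLCB3 was at 0.03 after nsEP and 0.36 after heat shock. PLCB4, in the dimmest quartile, spread from 1.20 to 6.0 within heat shock alone, and its intervals reached -2.94 after nsEP and -3.11 after heat shock.

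PLCG1 (202789_at) encodes the phospholipase C that the T cell receptor activates. Its signal on the log2 scale was 10.80, 10.87 and 10.76 in sham, 10.15, 10.55 and 10.82 after nsEP and 10.89, 11.25 and 10.64 after heat shock. The groups overlapped, with a ratio of -0.30 (SE 0.20, adjusted p = 0.831) after nsEP and 0.11 (SE 0.20, adjusted p = 0.813) after heat shock. With arrays centred on the median gene the latter was -0.09. Between both stresses the ratio was -0.42 (adjusted p = 0.275). PLCG2, the form that B cells use, was at 0.03 after nsEP and 0.62 after heat shock (adjusted p = 0.294). A dimmer PLCG2 probe set, 230917_at, was lower after nsEP than after heat shock, at -1.13 (adjusted p = 0.0332), where the brightest was at -0.58 (adjusted p = 0.311). Both lipid kinases lay close to sham. PIP5K1A, which makes phosphatidylinositol bisphosphate, was at 0.18 after nsEP (interval -0.17 to 0.53) and -0.06 after heat shock. PIP4K2A was at 0.08 (interval -0.23 to 0.39) and 0.04.

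Of the IP3 receptors, the release channels of the reticulum, 0 of 3 passed in any comparison. ITPR1 (203710_at) had log2 signals of 8.90, 8.76 and 8.55 in sham, 9.10, 9.08 and 8.65 after nsEP and 8.68, 8.395 and 8.398 after heat shock. The heat shock group was the lowest on average but overlapped with both others. The ratio was 0.21 (SE 0.20, adjusted p = 0.916) after nsEP, -0.24 (SE 0.20, adjusted p = 0.561) after heat shock and 0.45 between both (adjusted p = 0.243). Its 5 probe sets, 3 of them above the median signal, gave unequal ratios, and 0 passed. They ran from -1.70 to 0.31 after nsEP and from -0.32 to 2.18 after heat shock.

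ITPR3 had the smallest p of the 33 genes after nsEP. Its log2 signal was 10.21, 9.89 and 9.81 in sham, 9.52, 9.59 and 9.34 after nsEP and 9.92, 10.30 and 9.89 after heat shock, so all 3 nsEP arrays lay below the other 6. The ratio after nsEP was -0.48 (SE 0.18, unadjusted p = 0.0166, adjusted p = 0.585), and nsEP minus heat shock was -0.55 (adjusted p = 0.0973). Its other 3 probe sets did not all follow, and 2 of the 4 were below sham after nsEP. Of the 3 above the median signal, only the brightest was below sham, and the ratios of the 4 ran from -0.48 to 0.03. ITPR2 was at -0.24 after nsEP and -0.28 after heat shock.

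Among the pumps and the mitochondrial uniporter, 0 of 5 passed against sham and 1 of 5, ATP2B1, passed between nsEP and heat shock. ATP2B1 (215716_s_at) moves calcium out across the plasma membrane. Arrays gave log2 signals of 9.80, 9.64 and 9.57 in sham, 9.81, 9.89 and 9.41 after nsEP and 8.94, 8.64 and 9.25 after heat shock. Every heat shock array lay below the other 6, and nsEP overlapped with sham. The ratio was 0.03 after nsEP (SE 0.20, interval -0.40 to 0.46, adjusted p = 0.992) and -0.72 after heat shock (SE 0.20, adjusted p = 0.0634). The difference between both stresses was 0.76 (SE 0.20, interval 0.33 to 1.19, adjusted p = 0.0478), or 0.90 relative to the median of all genes. That call rested on nsEP replicates 1 and 2 and heat shock replicates 1 and 2, without which the adjusted p was 0.12, 0.176, 0.13 and 0.158. Without nsEP replicate 3 it was 0.0191. All 3 probe sets of ATP2B1 were below sham after heat shock, from -0.74 to -0.30, and a second one, 212930_at, also passed between both stresses (1.08, adjusted p = 0.0402).

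The pumps that refill the reticulum were lower after heat shock without passing. ATP2A2, the form that most cells carry, had log2 signals of 12.42, 12.17 and 12.36 in sham and 12.03, 11.65 and 11.55 after heat shock, a ratio of -0.57 (SE 0.17, adjusted p = 0.0874). After nsEP it was at -0.07 (interval -0.44 to 0.30). ATP2A3, the form typical of blood cells, was at -0.49 after heat shock (adjusted p = 0.353), and all 5 of its probe sets were below sham, down to -1.495. After nsEP it was at -0.37, with arrays that spread from 11.41 to 12.69. ATP2B4, a second plasma membrane pump, was at 0.14 after nsEP and -0.17 after heat shock, and MCU, the pore of calcium uptake into mitochondria, at 0.06 and 0.11.

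**Figure D3:**
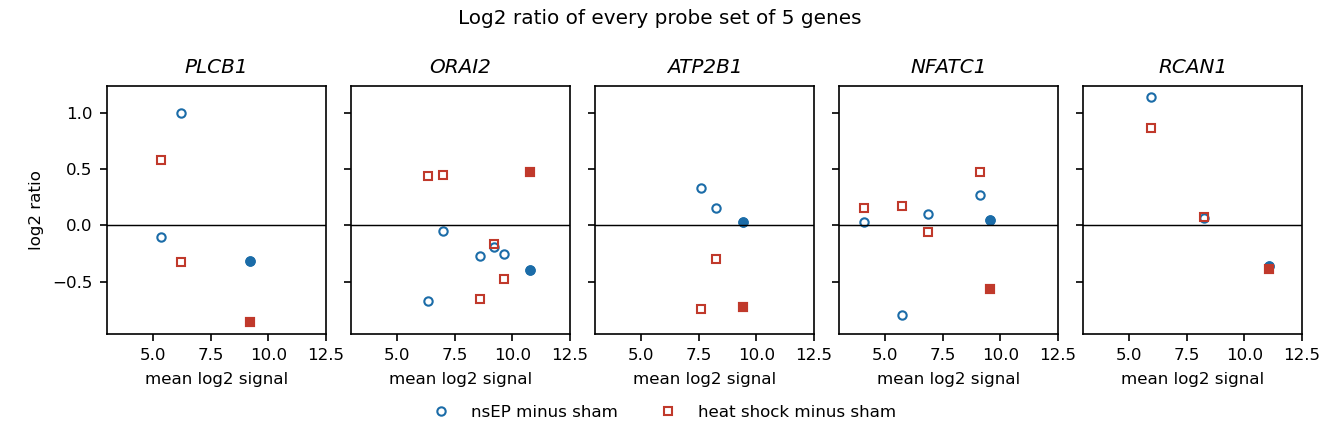
Log2 ratio of every probe set of PLCB1, ORAI2, ATP2B1, NFATC1 and RCAN1 (vertical axis) against its mean log2 signal over the 9 arrays (horizontal axis), for nsEP minus sham (blue circles) and heat shock minus sham (red squares). Filled symbols mark the brightest probe set, and all 3 ATP2B1 squares lie below 0 while those of ORAI2 and NFATC1 lie on both sides.

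Of the calcineurin and NFAT genes, 0 of 6 passed against sham and 1 of 6, NFATC1, passed between nsEP and heat shock. PPP3CA (202425_x_at) encodes a catalytic subunit of calcineurin. Signals on the log2 scale were 10.10, 9.67 and 9.55 in sham, 9.79, 9.39 and 9.55 after nsEP and 10.00, 9.85 and 10.15 after heat shock. The 3 heat shock arrays lay above the 3 nsEP arrays, and sham overlapped with both. The ratio was -0.20 (SE 0.19, adjusted p = 0.91) after nsEP, 0.22 (SE 0.19, adjusted p = 0.569) after heat shock and -0.42 between both (adjusted p = 0.239). PPP3CB, the other catalytic subunit measured, was at -0.40 after nsEP and -0.49 after heat shock (adjusted p = 0.808 and 0.299).

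NFATC1 (211105_s_at) had log2 signals of 9.61, 9.76 and 9.76 in sham, 9.53, 9.92 and 9.84 after nsEP and 9.13, 9.20 and 9.10 after heat shock. The heat shock arrays lay below the other 6 and close together, and nsEP overlapped with sham. The ratio was 0.05 after nsEP (SE 0.16, interval -0.30 to 0.40, adjusted p = 0.982) and -0.57 after heat shock (SE 0.16, adjusted p = 0.0731). The difference between both stresses was 0.62 (SE 0.16, interval 0.27 to 0.97, adjusted p = 0.0464), or 0.76 relative to the median of all genes. Of the 6 ways to leave out 1 of its nsEP or heat shock arrays, the call held only without nsEP replicate 1 (adjusted p = 0.0316). Without nsEP replicate 3 the adjusted p was 0.067, and the highest was 0.17, without nsEP replicate 2. The second brightest NFATC1 probe set, 210162_s_at, was at 0.47 after heat shock (adjusted p = 0.23), the opposite sign to the brightest, and 2 of the 5 probe sets were below sham. In nsEP minus heat shock, where the call was made, 2 of the 5 were above 0 and only the brightest passed. The ratios there ran from -0.97 to 0.62.

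NFATC2 (226991_at), an NFAT factor of T cells, had log2 signals of 9.09, 9.35 and 9.34 in sham, 9.10, 9.03 and 9.59 after nsEP and 9.05, 9.24 and 9.18 after heat shock. The 3 groups overlapped. The ratio was -0.02 (SE 0.19, adjusted p = 0.996) after nsEP, -0.10 (SE 0.19, adjusted p = 0.824) after heat shock and 0.08 between both (adjusted p = 0.861). Its 4 probe sets, 2 of them above the median signal, ran from -1.09 to 0.15 after nsEP and from -0.24 to 0.93 after heat shock. Between both stresses they ran from -2.02 to 0.30, and 0 passed in any comparison. NFATC3 was at -0.01 after nsEP (interval -0.46 to 0.44) and -0.37 after heat shock (adjusted p = 0.379).

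RCAN1 (208370_s_at) encodes an inhibitor of calcineurin and is itself an NFAT target. Its log2 signal was 11.66, 11.18 and 11.17 in sham, 11.23, 10.93 and 10.76 after nsEP and 11.07, 10.76 and 11.01 after heat shock. All 3 heat shock arrays lay below the sham arrays, and 1 nsEP array overlapped with sham. The ratio was -0.36 (SE 0.18, adjusted p = 0.749) after nsEP, -0.39 (SE 0.18, adjusted p = 0.283) after heat shock and 0.03 between both (SE 0.18, interval -0.37 to 0.42, adjusted p = 0.958). The dimmer RCAN1 probe sets were at 0.06 and 1.14 after nsEP and at 0.07 and 0.86 after heat shock, so the 3 probe sets did not share a sign.

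The genes around this route were read from a list of 117, of which 103 were measured. Against sham, 0 of 103 passed after nsEP, where 0.0506% of all genes were called higher and 0.0101% lower. At an unadjusted p under 0.05 there were 7, 3 higher, against 2.49% of all genes, and 4 lower, against 2.91%. After heat shock 2 rose and 3 fell, and between nsEP and heat shock 3 were higher after nsEP and 4 lower. Among all genes 1.72% rose and 3.99% fell after heat shock, and 3.83% were higher and 2.16% lower after nsEP than after heat shock. The median log2 ratio of the 103 genes was -0.06 after nsEP and 0.10 after heat shock.

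Of the calcium and NFAT target genes, 16 of 19 were measured, and only CD69, EGR3 and NR4A1 passed in a comparison. After nsEP 10 of the 16 were above 0 and 6 below, from -1.18 (IL5) to 2.26 (EGR3). After heat shock 13 were above 0 and 3 below. The median of all genes was then at 0.14, and 11 of the 16 were above that median and 5 below. CD69, an early activation receptor of lymphocytes, had log2 signals of 8.65, 9.86 and 9.01 in sham, 11.21, 11.71 and 11.00 after nsEP and 8.29, 9.60 and 8.75 after heat shock. All 3 nsEP arrays lay above the other 6. Its ratio was 2.13 after nsEP (SE 0.35, adjusted p = 0.0654), -0.30 after heat shock (adjusted p = 0.709) and 2.43 between both (SE 0.35, adjusted p = 0.0017), so CD69 was 5.38-fold higher after nsEP than after heat shock.

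EGR3, a zinc finger transcription factor that NFAT helps to induce, had log2 signals of 6.43, 6.30 and 6.75 in sham, 9.05, 9.62 and 7.59 after nsEP and 10.39, 10.96 and 10.61 after heat shock. The 3 groups did not overlap, with heat shock highest. EGR3 rose 17.9-fold after heat shock (log2 ratio 4.16, SE 0.40, adjusted p = 9.99e-05), and after nsEP its ratio was 2.26 (SE 0.40, adjusted p = 0.0828). NR4A1, a nuclear receptor induced by antigen receptor signals, rose 4.17-fold after heat shock (log2 ratio 2.06, SE 0.31, adjusted p = 0.00241), and nsEP minus heat shock was -1.64 (adjusted p = 0.00897). After nsEP NR4A1 was at 0.42 (adjusted p = 0.859), with nsEP arrays from 7.18 to 8.24 among sham arrays from 6.89 to 7.75.

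Of the calmodulin, calcineurin partner and NFAT kinase genes, 20 of 25 were measured, and the 3 that passed in a comparison were kinases. DYRK1A, which phosphorylates NFAT and so opposes calcineurin, had log2 signals of 12.59, 12.60 and 12.64 in sham, 12.76, 13.05 and 12.70 after nsEP and 11.83, 12.01 and 12.03 after heat shock. The groups did not overlap. DYRK1A fell by 0.66 after heat shock (SE 0.14, adjusted p = 0.0223) and was 0.88 higher after nsEP than after heat shock (adjusted p = 0.0036), while nsEP against sham was 0.23 (adjusted p = 0.827). GSK3A, of a kinase family that phosphorylates NFAT, was lower after nsEP than after heat shock by a log2 ratio of -0.78 (adjusted p = 0.0346). Its heat shock arrays of 9.99, 9.93 and 9.93 lay above all 6 others. GSK3B, of the same family, went the other way without passing. It was at -0.89 after heat shock (adjusted p = 0.0572) and nsEP minus heat shock was 0.83 (adjusted p = 0.0656). CAMK4, a calmodulin dependent kinase of T cells, fell by 0.67 after heat shock (SE 0.16, adjusted p = 0.0346).

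Of the other channels, 20 of 22 were measured, and PANX1 was the one that passed. PANX1 encodes pannexin 1, a wide pore that releases ATP. Its log2 signal was 11.85, 11.87 and 11.86 in sham, 11.26, 11.78 and 11.73 after nsEP and 10.00, 10.78 and 10.30 after heat shock. The groups did not overlap, and the 3 sham arrays were nearly equal. PANX1 fell by 1.498 after heat shock (SE 0.20, adjusted p = 0.00113), stood at -0.27 after nsEP (adjusted p = 0.867) and was 2.35-fold higher after nsEP than after heat shock (adjusted p = 0.00379). Of 28 other phosphoinositide and diacylglycerol enzymes measured, DGKE, a diacylglycerol kinase, was lower after nsEP than after heat shock, at -0.87 (SE 0.23, adjusted p = 0.0477). Of the 19 other pumps, exchangers and store proteins, 0 passed in any comparison. At an unadjusted p under 0.05 there were 0 after nsEP, 3 after heat shock, all higher, and 4 between both, all lower after nsEP. Among all genes at that p, 2.49% were higher and 2.91% lower after nsEP. The shares were 10.7% higher and 11.3% lower after heat shock, and 10.1% higher and 10.8% lower after nsEP than after heat shock.

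**Figure D4:**
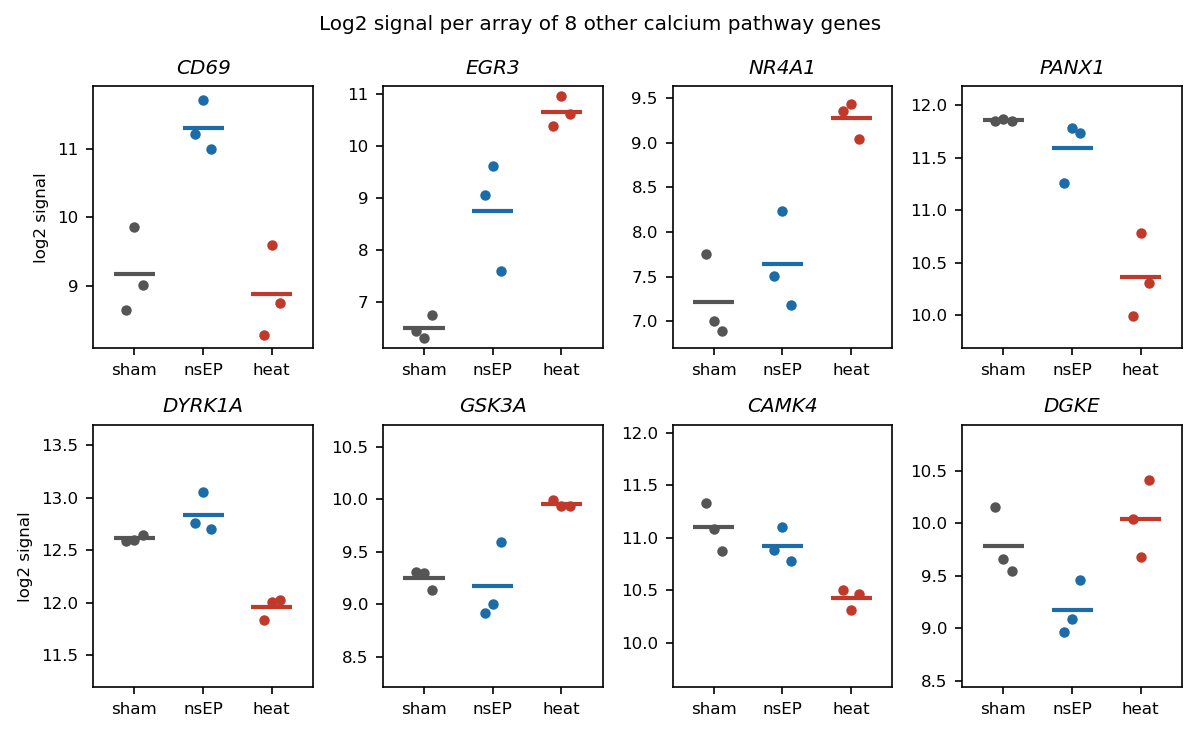
Log2 signal on each of the 9 arrays (points) and the group mean (bars) for the 8 other pathway genes that passed in a comparison, by sham, nsEP and heat shock, 3 arrays each, with a separate axis range in each panel. CD69 is high on the 3 nsEP arrays only, EGR3 and NR4A1 are highest on the 3 heat shock arrays, and PANX1, DYRK1A and CAMK4 are lowest there.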

How the data were processed

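Total RNA of Jurkat cells was measured on 9 human Affymetrix arrays. The deposited values are log2 signals that the authors made with MAS5, which brings the trimmed means of all arrays to 1 level and does not remove dim probe sets. Turned back to signals, with 2% trimmed at each end, each array had a mean of 500.1. Detection calls were not used here. Dim probe sets scatter widely on this scale, and with 3 arrays a group precision is limited by their number.

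Groups came from the sample titles. Of 54675 probe sets, 62 controls were left out. Of the other 54613, the platform table gave 41091 exactly 1 symbol, 1801 several and 11721 none, and 41037 symbols were matched by gene identifier to the RefSeq gene table. A gene stood for its brightest probe set. All 9 arrays entered 1 fit in limma 3.58.1 (R 4.3.3) with 1 mean per group, a variance trend, two-sided moderated tests, 95% intervals and Benjamini-Hochberg adjustment, called under 0.05. The methods' t-test was an alternative. An exact permutation test of 3 against 3 arrays cannot go below p = 0.1.

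The genes and lists were chosen with earlier results of these data known. Each of the 33 genes that passed at its brightest probe set, with PIEZO1, ORAI1, STIM1, ITPR1, PLCG1, NFATC1, NFATC2, PPP3CA and RCAN1, is given on every array. Others are given by counts and ranges, with up to 4 per role named by smallest unadjusted p, and up to 3 pathway genes per list and direction by largest ratio. Dimmer probe sets, TRPM7 without nsEP replicate 3 and genes beyond that number were named after their values were seen. The script was tested on simulated data. Alternatives were quantile normalization, centring on the median gene, 32 signal units added, dim probe sets left out, no variance trend, only the 6 arrays compared, array weights, replicate number as a block, leaving out each array, and the probe set with the smallest p.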

Additional observations from a re-analysis of the deposited data

How the results depend on the processing

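The count of 0 genes past the test after nsEP held under all 17 alternatives, at 2 genes under an unadjusted p of 0.05. Of the 17, the t-test at a log2 ratio of 2 could call none of the 33, so its counts of 0 were fixed in advance. The largest ratios were 0.90 in size after nsEP, 0.87 after heat shock and 0.86 between both. After heat shock 1 of the 33 passed. The count was 5 with arrays centred on the median gene (ATP2A2, ATP2B1, NFATC1, ORAI1 and PLCB1), 2 with dim probe sets left out, 3 with array weights, 0 with no variance trend, 0 by the methods' t-test, both Benjamini-Hochberg adjusted and at a log2 ratio of 2, and 0 to 1 without single arrays. Between nsEP and heat shock 3 passed. The count was 5 with centring (the same 5 genes, all higher after nsEP) or with the probe set of smallest p, 1 with quantile normalization or only the 6 arrays, 0 with no variance trend and by both forms of the t-test, and 0 to 3 without single arrays.

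Of the other pathway genes, 0 passed after nsEP, against 2 with dim probe sets left out, 1 with array weights, 2 by the t-test at a log2 ratio of 2, and 0 to 1 without single arrays. After heat shock 5 passed, against 9 with centring, 10 with dim sets left out, 3 with no variance trend, 11 with weights, 2 by both forms of the t-test, and 3 to 6 without single arrays. Between both stresses 7 passed, against 11 with quantile normalization, dim sets left out or weights, 1 with no variance trend, 0 by the adjusted t-test, 3 by the t-test at a log2 ratio of 2, and 4 to 13 without single arrays (13 without nsEP replicate 3).

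Samples of the same number did not deviate together (correlations from -0.07 to 0.05), so the numbers are names. With replicate number as a block, 1 of the 33 genes (ORAI2) passed between both stresses, and of the other pathway genes 1 passed after nsEP and 8 after heat shock.

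The median of the 33 genes after heat shock relative to all genes was -0.38, and -0.17 with quantile normalization. Of the single gene values, 35 lost and 9 gained a call, and 33 of the 535 that stayed uncalled changed sign. The cause of these differences was not tested, and the share of all genes called under each alternative was not counted.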
